A study of Homo sapiens with 8 samples.

Results

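The genes of the P-TEFb elongation complex and its closest partners were examined in RNA bound to Argonaute 2 (Ago2-IP, IP) and in total RNA (T) of L1236 cells, an established Hodgkin lymphoma (HL) cell line. The members asked for were 8 genes, CCNT1, CCNT2, CDK9, HEXIM1, LARP7, CCNK, CDK12 and AFF4, and every array probe whose accession mapped to one of them was taken. Of these, 7 genes had a probe, among 16557 genes named at any probe, and 15 probes represented them on an array of 41000 probes. No probe mapped to CCNK, the cyclin partner of CDK12, and its values are not analysed here. The set was chosen with the high IP/T ratio of CCNT2 in these same arrays in view, so that ratio is given as a description, and the other members are its partners and relatives.

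L1236 cells had been transduced with a retrovirus carrying either no insert (empty vector, EV) or a miR-155 sponge, a transcript with repeated miR-155 binding sites that is meant to occupy the miRNA. Cells were lysed and RISC, the complex in which Ago2 holds miRNAs on their target mRNAs, was pulled down with an anti-Ago2 antibody. The 4 groups were T and IP of EV cells and T and IP of sponge cells, and each was 1 RNA sample, labelled once with Cy3 and once with Cy5 and hybridised on 4 two-colour arrays, which gives 8 channels. Both populations derive from 1 cell line, and the EV cells were transduced too. An IgG pull-down was used as a negative control by the study, but arrays of it were not analysed here, so an IP/T ratio compares Ago2-bound RNA with total RNA and not with a control pull-down.

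P-TEFb is a kinase, CDK9, bound to cyclin T1 or cyclin T2. It phosphorylates the negative elongation factors and the tail of RNA polymerase II and so releases polymerase that has paused near the start of a gene. Much of it is held inactive by HEXIM proteins on the 7SK RNA, which LARP7 stabilises, and an active part sits in the super elongation complex on the scaffold AFF4. CDK12 with cyclin K is a related kinase that acts later in elongation.

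The miRNA that the sponge was built to bind is shown because the populations differ in carrying that sponge. Its level was not measured on these arrays. It is the mature hsa-miR-155-5p, at chr21:25573983-25574006 on the plus strand of GRCh38.p14, with the sequence and its length of 24 bases as RefSeq's table gives them. Capitals mark the seed, bases 2 to 8, which pairs with target mRNAs, and its reverse complement in RNA letters is AGCAUUA.
hsa-miR-155-5p: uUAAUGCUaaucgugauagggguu

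Across the whole series, 22470 of the 41000 probes were kept because they were well above background in at least 4 of 8 channels and their Cy3 and Cy5 values lay within 2-fold of each other in each RNA sample. The kept probes with a symbol represented 11203 genes. The Cy5 channel of sponge T stood apart: it detected 53.2% of the probes, where the other 7 detected 60.2% to 65.0%, and the part of this channel in any result was not tested. Results are therefore given by array as well as on average. All 8 Hodgkin cell markers were well above background in every T channel, among them TNFRSF8 (CD30) and CCL17, whereas the B-cell gene MS4A1 (CD20) and the T-cell gene CD3D were in none. Of the other lists, 5 of 8 B-lineage, 5 of 8 T-lineage and 3 of 8 myeloid markers were detected in all 4 T channels. Among these, POU2AF1 and CD79A of the B-lineage list had geometric mean T signals of 37438 and 8189. CD4 of the T-lineage list had 19268.

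Of the 15 member probes, 12 were kept, representing 6 genes. The other 3 were 1 probe each of CCNT1, CCNT2 and AFF4, and all were lost because the dyes were more than 2-fold apart, with the widest gap in sponge T. Detection was complete, in all 8 channels, for 11 of the 15 probes. The exceptions were probes of CCNT1, CCNT2, CDK9 and AFF4, each not well above background in the Cy5 channel of sponge T, and the CCNT2 probe A_24_P174341 in the Cy5 channel of EV T as well. No member probe was saturated. All signals below are quantile-normalised log2 values of 1 probe, and they are compared only between samples of that probe. Each IP/T value is the mean of the 2 arrays of a population, one with IP in Cy5 and one with IP in Cy3, and its SD over these 2 dye orientations is the labelling error of 1 RNA sample. With 1 RNA sample a group no test between groups is possible, and the SD says nothing about the spread between cultures.

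**Figure D1:**
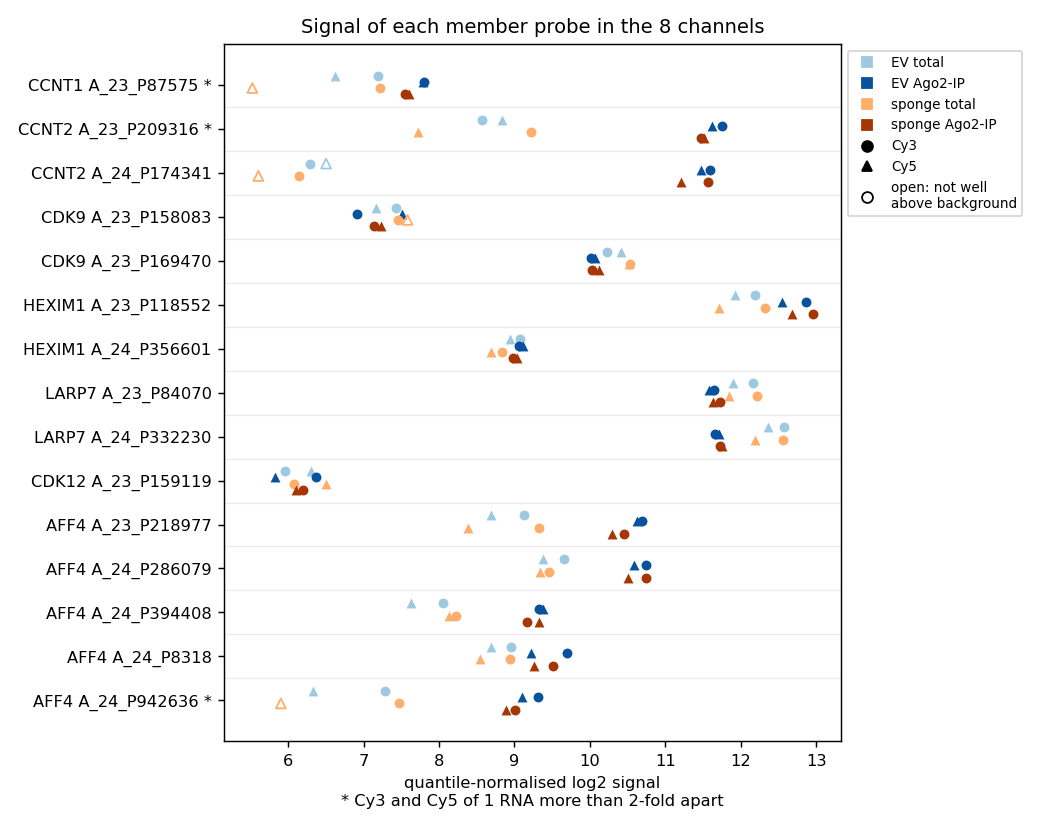
Quantile-normalised log2 signal (x axis) of each of the 15 member probes (y axis) in the 8 channels. Colour gives the RNA sample, circles are Cy3 and triangles Cy5, open symbols were not well above background, and a star marks the 3 probes whose dyes were more than 2-fold apart. IP lies far to the right of T at both CCNT2 probes and to the left of T at both LARP7 probes.

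CCNT2, one of the interchangeable cyclin subunits that activate CDK9, was the member with the highest ratio of Ago2-bound over total signal, whereas its partner kinase CDK9 was not higher in IP. At probe A_24_P174341 the log2 signal in EV cells was 6.28 (Cy3) and 6.50 (Cy5) in T against 11.59 and 11.47 in IP. In sponge cells it was 6.15 and 5.61 in T against 11.56 and 11.21 in IP. The IP and T channels did not overlap in either population, and the 4 IP values lay close together. The log2 IP/T ratio was 5.14 ± 0.08 (SD, n = 2 orientations) in EV cells, a 35.2-fold ratio, and 5.51 ± 0.63 in sponge cells, a 45.7-fold ratio. By these values the probe ranked 5 among the 22470 kept probes in EV and 2 in sponge cells. In each population T was well above background in 1 of its 2 channels, so the exact folds and ranks are not firm. A ratio of 32 or more was reached by 0.0356% of kept probes in EV and by 0.0134% in sponge cells, CCNT2 among them in both. In bulk RNA, fewer cells expressing a transcript and less transcript per cell cannot be told apart.

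The total signal behind this ratio was dim. In EV cells the median brightness of the A_24_P174341 spot was 36 in T Cy3 over a local background of 19, against 808 over 20 in IP Cy3. In the Cy5 channels of EV cells it was 45 over 37 in T and 479 over 33 in IP. In sponge cells the Cy3 spot measured 36 over 18 in T and 858 over 24 in IP, and the Cy5 spot 37 over 37 in T and 504 over 37 in IP. The IP spots thus stood far above their surroundings on all 4 arrays, whereas T was well above background in both Cy3 channels and in neither Cy5 channel. The size of the ratio depended on how this background was treated. It was 5.18 and 5.50 (EV and sponge, log2) after scaling to the 75th percentile, and 5.14 and 5.52 in the authors' normalised values, as an average over the dyes. With normexp background correction it was 2.79 and 2.97 without an offset and 1.92 and 1.88 with an offset of 50, an addition that by construction shrinks the ratios of dim probes. With normexp, loess and Aquantile it was 2.00 ± 1.25 and 1.58 ± 1.31. Under the correction without an offset, which was chosen after seeing the data, 0.952% of kept probes were at or above CCNT2 in EV and 0.596% in sponge cells, and with the offset 2.41% and 2.21% were. Averaged over the arrays, the ratio was above 2-fold under every setting run. With loess the SD of 1.31 in sponge cells means that a single array there lay below 2-fold. The single dyes and single arrays of the quantile-normalised values gave 4.97 to 5.30 in EV and 5.07 to 5.96 in sponge cells.

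The other CCNT2 probe, A_23_P209316, was well above background in all 8 channels, T included. Its log2 signal in EV cells was 8.57 (Cy3) and 8.84 (Cy5) in T against 11.75 and 11.62 in IP. In sponge cells it was 9.22 and 7.72 in T against 11.47 and 11.51 in IP. Again no T value reached an IP value, but the 2 dyes of sponge T were 1.51 apart on the log2 scale, which removed the probe from the kept set. This gave a log2 IP/T ratio of 2.98 ± 0.09 in EV (7.90-fold) and 3.02 ± 1.04 in sponge cells (8.13-fold), with 2.29 on the sponge array with IP in Cy5 and 3.76 on the one with IP in Cy3. An IP/T ratio of 8 or more was held by 1.70% of all kept probes in EV and by 1.58% in sponge cells, and 1.72% were at or above this EV value and 1.54% at or above the sponge value. Under the 3 settings with normexp it was 1.73 to 2.09 in EV and 1.62 to 2.18 in sponge cells.

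Averaged over the arrays, both CCNT2 probes were therefore several-fold higher in IP than in T. Their ratios differed by 2.15 on the log2 scale in EV cells. A range this wide or wider was found in 2.79% of the 4080 genes with at least 2 detected probes, whose median range was 0.43. After normexp with offset 50 the probes were 1.92 and 1.73 in EV cells, less far apart than the SD of either, 0.20 and 0.28. Without an offset they were 2.79 ± 0.27 and 2.09 ± 0.33 in EV cells, farther apart than either SD. The files used here do not give where in the transcript each probe lies.

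**Figure D2:**
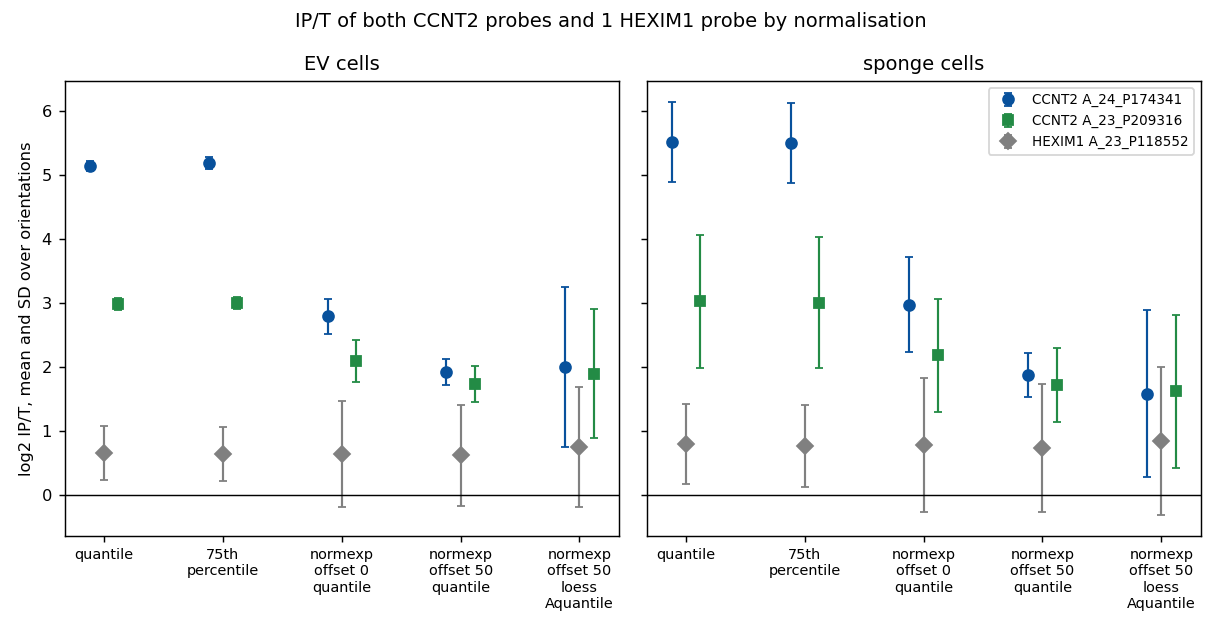
log2 IP/T (y axis) of both CCNT2 probes and, for scale, of 1 HEXIM1 probe under 5 normalisations (x axis), in EV cells (left) and sponge cells (right). Points are means and bars the SD over the 2 dye orientations. The ratio of A_24_P174341 lies above 5 with quantile or percentile scaling and between 1.58 and 2.97 with normexp. The mean of the HEXIM1 probe stays between 0.62 and 0.84, but with normexp its SD is larger than that mean.

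CCNT1, the paralog that also serves as the HIV Tat cofactor, was on average less than 2-fold higher in IP in EV cells. Its single probe A_23_P87575 gave a log2 signal in EV cells of 7.18 (Cy3) and 6.62 (Cy5) in T against 7.81 and 7.78 in IP. In sponge cells it gave 7.21 and 5.53 in T against 7.55 and 7.60 in IP, and the 5.53 was not well above background. IP was above T on every array. On average log2 IP/T was 0.89 ± 0.41 in EV cells, where the arrays gave 0.60 and, with IP in Cy3, 1.18. In sponge cells it was 1.21 ± 1.16, and the arrays gave 0.39 and 2.03. The sponge mean passed 2-fold only through the array that used the dim Cy5 channel of sponge T. Under the settings with normexp the ratio was 0.24 to 0.43 in EV and 0.17 to 0.32 in sponge cells. The EV ratio of CCNT1 lay below both CCNT2 values on both arrays.

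CDK9, the kinase that either cyclin T activates, showed slightly more signal in T than in IP at the probe with the most spots. A_23_P169470 was printed as 10 spots on each array, and its signals varied by an SD of 0.023 to 0.100 on the log2 scale over the spots. The log2 signal in EV cells was 10.23 (Cy3) and 10.42 (Cy5) in T and 10.01 and 10.06 in IP. In sponge cells it was 10.53 and 10.52 in T and 10.03 and 10.11 in IP. Every T value was above every IP value. The log2 IP/T ratio was -0.28 ± 0.17 in EV and -0.46 ± 0.06 in sponge cells. The other CDK9 probe, A_23_P158083, had a ratio of -0.08 ± 0.24 in EV cells, where the arrays differed in sign, and -0.34 ± 0.16 in sponge cells, which turned to 0.00 and 0.08 under normexp with offset 50, without and with loess.

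The 7SK arm of the complex split between its members. LARP7, the protein that protects 7SK RNA, was lower in IP than in T at both probes and on all 4 arrays. At A_24_P332230 the log2 signal in EV cells was 12.57 (Cy3) and 12.36 (Cy5) in T against 11.66 and 11.71 in IP, and in sponge cells 12.56 and 12.18 against 11.73 and 11.75. The groups did not overlap. Log2 IP/T came to -0.78 ± 0.12 in EV and -0.63 ± 0.25 in sponge cells, with a range of -0.91 to -0.43 over all alternatives in both populations. The second LARP7 probe, A_23_P84070, gave -0.41 ± 0.24 and -0.35 ± 0.32.

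HEXIM1, the protein that inhibits CDK9 on 7SK RNA, was not lower in IP. Its probe A_23_P118552 measured 12.18 (Cy3) and 11.92 (Cy5) in EV T against 12.87 and 12.54 in EV IP, and 12.33 and 11.71 in sponge T against 12.95 and 12.68 in sponge IP. All IP values exceeded all T values. Its log2 IP/T ratio was 0.65 ± 0.42 in EV and 0.80 ± 0.63 in sponge cells. With normexp without an offset this ratio was 0.65 ± 0.83 and 0.78 ± 1.05. The other probe, A_24_P356601, had ratios near 0, with 0.07 ± 0.06 in EV and 0.25 ± 0.07 in sponge cells. The 2 HEXIM1 probes differed by 0.58 in EV cells, and 39.1% of genes with several detected probes had a range as wide or wider. For comparison, HEXIM2, the paralog of HEXIM1, was on the T side with -1.39 ± 0.03 in EV and -1.35 ± 0.03 in sponge cells.

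CDK12, the kinase that partners with cyclin K, had no ratio beyond its error. Its probe A_23_P159119 measured 5.96 (Cy3) and 6.31 (Cy5) in EV T, 6.38 and 5.83 in EV IP, 6.08 and 6.50 in sponge T and 6.20 and 6.11 in sponge IP. The T and IP values overlapped in both populations. The T spots were dim, with medians of 46 over a local background of 25 in EV Cy3 and 47 over 35 in sponge Cy5. The ratio on the log2 scale was -0.03 ± 0.14 in EV and -0.14 ± 0.23 in sponge cells, and its sign depended on the array and on the normalisation. CDK13, its paralog, had -0.34 ± 0.29 and -0.56 ± 0.49.

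AFF4, the scaffold of the super elongation complex, was also higher in IP in the quantile-normalised values, at all 5 probes and on all 4 arrays. At A_23_P218977 the log2 signal in EV cells was 9.13 (Cy3) and 8.69 (Cy5) in T against 10.69 and 10.62 in IP, and in sponge cells 9.32 and 8.38 against 10.45 and 10.30. At A_24_P394408 it was 8.05 and 7.63 against 9.32 and 9.38 in EV cells, and 8.22 and 8.14 against 9.16 and 9.33 in sponge cells. The IP values were above the T values throughout. Averaged over the arrays, log2 IP/T was 1.74 ± 0.36 and 1.52 ± 0.77 (EV and sponge) at A_23_P218977, 1.51 ± 0.26 and 1.07 ± 0.06 at A_24_P394408, and 1.15 ± 0.31 and 1.23 ± 0.27 at A_24_P286079. These 3 probes passed 2-fold on average. A_24_P8318 did not, at 0.64 ± 0.53 and 0.64 ± 0.45. A_24_P942636, which was not kept, had the widest scatter, at 2.39 ± 0.83 and 2.26 ± 1.19. The 5 probes spanned 1.76 in EV cells, a range met or passed by 5.59% of genes with several detected probes. With normexp and offset 50 the ratio of A_24_P394408 was 0.56 in EV and 0.39 in sponge cells when followed by quantile normalisation, and no kept AFF4 probe was past 2-fold in either population. With loess and Aquantile it was 0.71 and 0.34, and A_23_P218977 was past 2-fold in EV cells at 1.1. With normexp without an offset A_24_P8318 was 0.35 ± 0.61 in EV cells, so a single array there was not higher in IP.

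**Figure D3:**
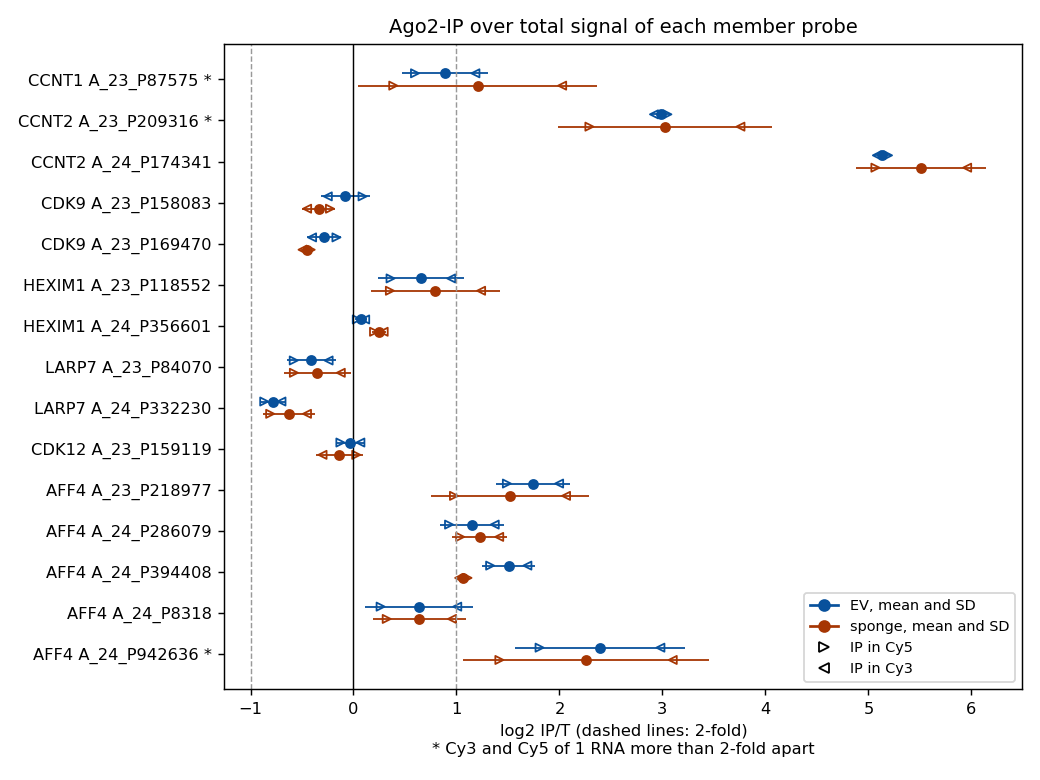
log2 IP/T (x axis) of the 15 member probes (y axis) in EV cells (blue) and sponge cells (brown). Filled points are means, bars the SD over the 2 dye orientations, open triangles the single arrays (pointing right with IP in Cy5, left with IP in Cy3), dashed lines mark 2-fold, and stars the 3 probes with dyes more than 2-fold apart. The CCNT2 and AFF4 probes lie to the right, and both LARP7 probes lie left of 0.

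An IP/T ratio of 2 or more was found at 4 of the 12 kept member probes in EV cells, where 17.5% of all kept probes passed, and at 4 of 12 in sponge cells, where 17.5% passed as well. The 4 were the same in both populations, the CCNT2 probe A_24_P174341 and 3 of AFF4. Counting all 15 probes, 6 passed in EV and 7 in sponge cells. The opposite ratio, T/IP of 2 or more, was reached by no member probe in either population, against 19.0% of all kept probes in EV and 17.8% in sponge cells. IP exceeded T on both arrays of EV cells at 7 of 12 kept member probes (39.1% of all kept probes) and on both arrays of sponge cells at 7 of 12 (38.9%). As the set was chosen on the CCNT2 ratio, and several probes belong to 1 gene, nothing is read from these shares. The median log2 IP/T was 0.35 over the 12 kept member probes and -0.16 over all kept probes in EV cells, and 0.44 and -0.13 in sponge cells.

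In the order of log2 IP/T in EV cells, A_24_P174341 of CCNT2 came first, followed by the other CCNT2 probe and 4 probes of AFF4. CCNT1, A_23_P118552 of HEXIM1, A_24_P8318 of AFF4 and A_24_P356601 of HEXIM1 came next, and CDK12, both CDK9 and both LARP7 probes closed the order. Of the 14 pairs of neighbours in this order, 11 overlapped on single arrays and 3 did not. The 3 gaps were between the CCNT2 probes (2.15), between A_24_P8318 of AFF4 and A_24_P356601 of HEXIM1 (0.56), and between the LARP7 probes (0.37). In sponge cells 11 pairs overlapped and 3 did not too, and CCNT2 again led by 2.49. The IP/T ratio of EV cells was higher with IP in Cy3 than with IP in Cy5 at 9 of 12 kept member probes, against 53.5% of all kept probes, and in sponge cells at 8 of 12, against 54.5%.

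The study asked whether sequestering miR-155 with the sponge lowers the Ago2-bound share of its targets. In its HL cells it reported only a mild depletion of these targets from Ago2-bound RNA. It proposed that the sponge had not captured all of the abundant miR-155. Whether any member is a miR-155 target was not tested here. On average over the dyes, no member moved by as much as 2-fold between sponge and EV cells. This held in T, where 0.409% of all kept probes changed 2-fold (0.151% higher and 0.258% lower), in IP, where 0.151% did (0.0846% higher and 0.0668% lower), and in the IP/T ratio, where 0.312% did. T was lower in sponge cells in both dyes at 5 of 12 kept member probes (33.4% of all kept probes) and higher at 4 (28.7%). IP was lower at 4 (35.7%) and higher at 4 (37.9%). For the kept probes these counts were close to the background shares. Counting all 15 probes, IP was lower in both dyes at 7 and higher at 4. The 3 probes lost to the dye filter, of CCNT1, CCNT2 and AFF4, were all lower in IP. The median change over kept member probes was -0.05 on the log2 scale in T and -0.04 in IP, beside -0.02 and 0.01 over all kept probes.

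For CCNT2 the IP signal was slightly lower in sponge cells. At A_24_P174341 the log2 change in IP, sponge minus EV, was -0.02 in Cy3 and -0.26 in Cy5, or -0.14 ± 0.17. At A_23_P209316 it was -0.28 and -0.11, or -0.19 ± 0.12. Both probes were lower in sponge IP in both dyes, by less than 2-fold. With loess the changes in IP were -0.32 at A_24_P174341 and -0.22 at A_23_P209316. The change in T was wide instead, with -0.14 (Cy3) and -0.90 (Cy5) at A_24_P174341 and 0.65 and -1.12 at A_23_P209316, so that the dyes differed in sign at the second probe. The change in log2 IP/T was 0.38 ± 0.71 and 0.04 ± 1.13, both within the labelling error, and at A_24_P174341 it was -0.12 on the pair of arrays with IP in Cy5 and 0.88 on the pair with IP in Cy3. With loess it was -0.42. The pairs that gave the larger values use the Cy5 channel of sponge T.

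CCNT1 showed the same dependence, with a change in T of 0.03 in Cy3 and -1.10 in Cy5, and a change in IP of -0.22 ± 0.05. CDK9 at its 10-spot probe was a little higher in sponge T, by 0.30 in Cy3 and 0.11 in Cy5, or 0.20 ± 0.14, while IP differed by 0.03 ± 0.03. Both dyes gave the same sign, and it held under all alternatives run for this probe. The other CDK9 probe gave 0.23 ± 0.27 in T, with -0.17 to 0.42 over the alternatives, so that its sign turned. HEXIM1 at A_24_P356601 was lower in sponge T by nearly the same amount in both dyes, -0.25 ± 0.01, but the change was 0.00 with loess. The other HEXIM1 probe gave -0.03 ± 0.25. For CDK12 the change in T was 0.16 ± 0.04 and in IP 0.05 ± 0.32. Over the alternatives its change in T ranged from 0.008 to 0.23.

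AFF4 gave small and mixed changes. At A_24_P394408 T was higher in sponge cells by 0.17 (Cy3) and 0.50 (Cy5) and IP lower, at -0.16 and -0.05, so that log2 IP/T changed by -0.44 ± 0.31. At A_23_P218977 IP was lower in both dyes, -0.28 ± 0.05, while T gave -0.06 ± 0.36. The other 3 AFF4 probes had changes in log2 IP/T between -0.14 and 0.08. The 5 probes of this gene thus did not share 1 change in the ratio.

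**Figure D4:**
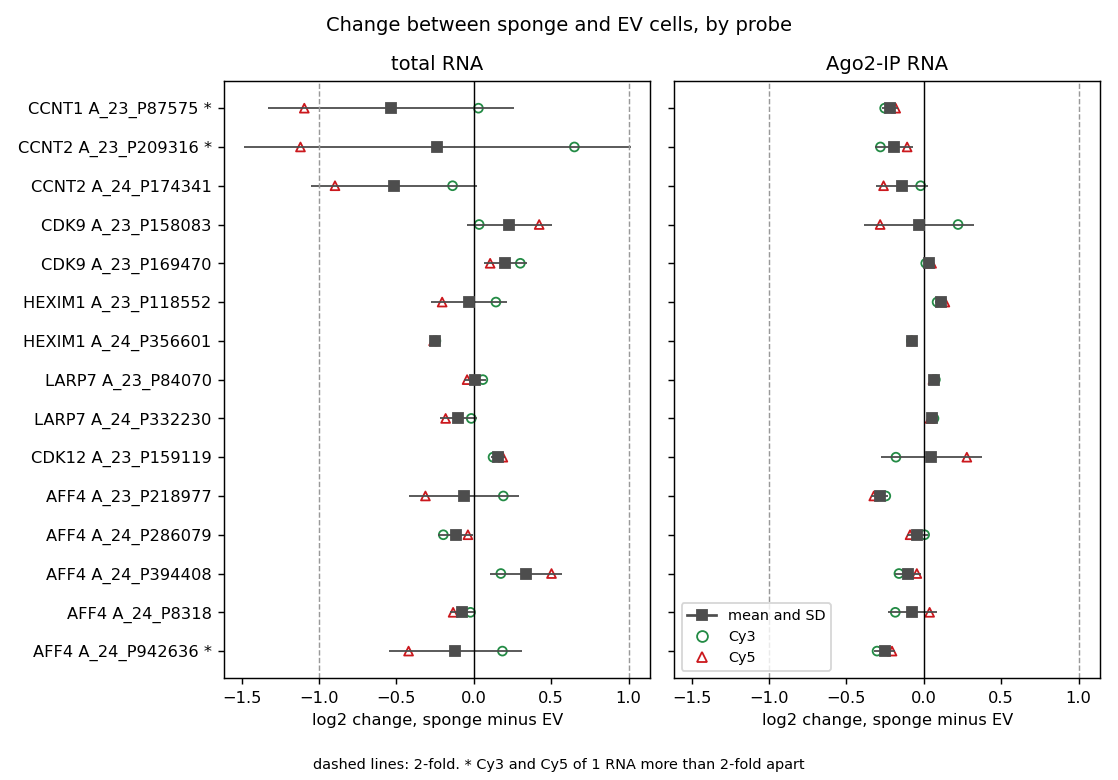
log2 change between sponge and EV cells (x axis, sponge minus EV) of the 15 member probes (y axis), in total RNA (left) and Ago2-IP RNA (right). Squares with bars are the mean and SD over the dyes, open circles Cy3, open triangles Cy5, dashed lines mark 2-fold and stars the 3 probes with dyes more than 2-fold apart. In IP no point lies farther from 0 than the -0.32 of AFF4 A_23_P218977 in Cy5, and the wide bars in T belong to probes whose Cy5 value in sponge T was low.

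The wider elongation machinery was described with a list of 38 genes outside the members, of which 36 had a kept probe. Each gene was given at a single probe, its kept probe of highest mean signal over all channels, whereas the shares of all kept probes count probes. It holds the super elongation complex, 7SK partners, NELF, DSIF, the PAF complex and related factors. Their median log2 IP/T was -0.58 in EV and -0.52 in sponge cells, below the medians of all kept probes given above. An IP/T ratio of 2 or more was seen in 2 of 36 genes in EV and 3 of 36 in sponge cells, against 17.5% of kept probes in each, and T/IP of 2 or more in 7 and 5, against 19.0% and 17.8%. Those past 2-fold in IP were ELL2 (1.5 ± 0.13 in EV and 1.34 ± 0.46 in sponge cells, log2) and EAF1 (1.41 ± 0.01 and 1.3 ± 0.26), an elongation factor and its binding partner in the super elongation complex, and in sponge cells CDK7 (1.07 ± 0.29), the kinase of TFIIH. On the other side were SUPT6H (-1.69 ± 0.11 in EV cells), a histone chaperone that travels with polymerase, SUPT5H (-1.53 ± 0.08), a DSIF subunit, and NELFB (-1.49 ± 0.05), a subunit of the negative elongation factor. Of the AFF genes in the list, AFF1 had 0.59 ± 0.64 in EV and 0.71 ± 0.45 in sponge cells, and AFF3 had no kept probe. No gene of the list changed 2-fold between sponge and EV cells in T or in IP.

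A list of 34 other cyclins and cyclin-dependent kinases, 31 of them kept, centred on log2 ratios of 0.56 in EV and 0.76 in sponge cells. An IP/T ratio of 2 or more was found in 12 genes in EV and 13 in sponge cells, against 17.5% of kept probes in each, and T/IP of 2 or more in 3 genes in each, against 19.0% and 17.8%. CCNJ was highest in this list, at 4.66 ± 0.11 in EV and 4.30 ± 0.28 in sponge cells, followed by CCNE1, the G1/S cyclin, at 2.87 ± 0.24 and 2.63 ± 0.36. Below them were CDK16 (2.30), CCNG2 (2.26) and the S-phase cyclin CCNA2 (2.15) in EV cells. CDK10 was lowest at -1.5. With the same quantile normalisation CCNT2 at A_24_P174341 lay above all 31, with the limit on its T signal given above, and A_23_P209316 overlapped CCNE1 over the orientations. The list was not set against CCNT2 under normexp. CCNH, CDK7 and CDK13 stand in both lists.

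**Figure D5:**
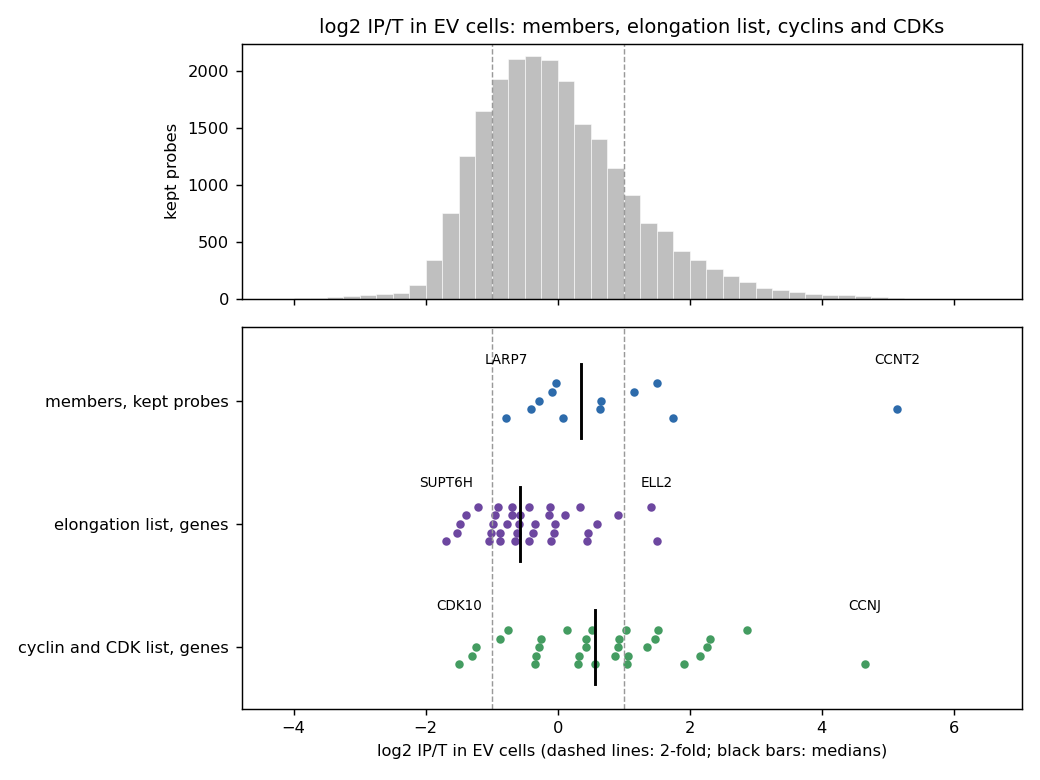
log2 IP/T in EV cells (x axis). The upper panel is a histogram of the kept probes, and the lower panel shows the 12 kept member probes, the 36 elongation genes and the 31 cyclins and CDKs, with medians as black bars at 0.35, -0.58 and 0.56 and dashed lines at 2-fold. List genes stand at their kept probe of highest mean signal, and members at every kept probe. CCNT2 at 5.14 lies at the far right edge of the histogram, and most elongation genes lie left of 0.

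The probes with a pattern most like CCNT2 A_24_P174341 over the 8 channels, each centred on its own mean, belonged to CFL2, CD69, MMD, ZNF430 and ZNF254, with root mean square differences of 0.29, 0.30, 0.30, 0.32 and 0.33 on the log2 scale. No T channel of CD69 was well above background, and the log2 IP/T of the other 4 in EV cells was 4.95 to 5.20. Of the 4 probes with larger values than CCNT2 in EV cells, those of MAP4K3 and CD69 had no T channel well above background there, so their ratios are only bounds and give no order. The other 2 were CFL2 at another probe (5.43 ± 0.13) and ZNF254 (5.20 ± 0.09), and next below came ZNF430 (5.13 ± 0.01) and ZNF92 (5.04 ± 0.16). CCNT2 overlapped ZNF254, ZNF430 and ZNF92 over the orientations and cannot be put in order against them.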

How the data were processed

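The 4 RNA samples (T and IP of EV and sponge cells) were read from 4 distinct two-colour arrays, each deposited under both of its samples. Per the file headers, the deposited intensities are processed signals, background-subtracted and dye-normalised by Agilent Feature Extraction 10.7.3.1 (the submitters' processing notes name 10.5.1.1), on an array annotated on hg18. The authors' deposited log2 table is quantile-normalised (GeneSpring GX 12.5 per the methods) and holds 22282 probes. It matched the quantile-normalised signals with a median absolute difference of at most 0.003 log2 in every channel, its channel medians lie between 9.85 and 9.90, and it served as an alternative.

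Here, control spots and outliers were left out, spots of a probe averaged, and the 8 channels quantile-normalised together (limma 3.58.1, R 4.3.3). The filters are given with the results: detection left 25827 probes and the dye filter removed 3357 of them. Further, 60 probes lacked a value in at least 1 channel. Ratios and changes were formed per array or dye and averaged. Scripts (Python 3.11.15) were tested on simulated data. Symbols came from RefSeq accessions (GRCh38.p14 table, names only), which named 69.5% of the kept probes.

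The members and gene lists were chosen with earlier results of these data known. With 1 RNA sample a group no p-value was computed. The text names all member probes, the 5 highest and lowest genes of each list as far as they bear on the members, the paralogs, and the 5 probes most like CCNT2. Arrays give no counts, and their number limits the precision.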

Additional observations from a re-analysis of the deposited data

Results flagged for a closer look

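At 2 member probes T and IP moved in opposite directions between sponge and EV cells in both dyes, and the difference between the 2 changes was not tested. At LARP7 A_24_P332230, T was lower in sponge cells (-0.02 in Cy3 and -0.18 in Cy5, log2) and IP higher (0.07 and 0.04), a difference of 0.15 ± 0.13 (SD, n = 2). The change in IP was -0.01 with loess. At AFF4 A_24_P394408, T was higher (0.17 and 0.50) and IP lower (-0.16 and -0.05), a difference of -0.44 ± 0.31, which ranged from -0.66 to -0.17 over the alternatives. The other 4 AFF4 probes did not show this opposition in both dyes.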

How the results depend on the processing

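The counts of kept member probes with T/IP of 2 or more, or changed 2-fold in T or IP, were 0 under every alternative run. Outside the kept set, T in Cy5 alone was more than 2-fold lower in sponge cells at CCNT1 (-1.10) and CCNT2 A_23_P209316 (-1.12). With normexp (offset 50) and quantile, the kept member probes with IP/T of 2 or more numbered 1 in EV and 1 in sponge cells, the elongation genes 1 and 1, and log2 IP/T of CCNT2 A_24_P174341 was 1.92 and 1.88, while 8.26% and 7.88% of all kept probes passed. With normexp, loess and Aquantile the members numbered 2 and 1 and CCNT2 was 2.00 and 1.58 (9.74% and 7.88% of all kept probes passed). With normexp without an offset, added after seeing the data, the members numbered 2 and 1, the elongation genes in EV cells 1, and CCNT2 was 2.79 and 2.97 (2360 and 2262 of the 22470 kept probes passed). That an offset shrinks dim ratios follows from its construction, and the cause of the rest was not tested. Without the dye filter 7 member probes passed in sponge cells. With 1 dye or 1 orientation alone, CCNT2 was 4.97 to 5.30 in EV and 5.07 to 5.96 in sponge cells, the members numbered 3 to 5 in each, and the elongation genes 2 to 4 and 1 to 4. Over the single member values, 546 of 660 moved by less than the SD over labellings and 114 by more. By construction a single orientation, and for changes a single dye, lies within that SD, so this count does not measure stability. No ratio of 2-fold or more changed sign. No paired analysis was possible because each group is 1 RNA sample and the replicate numbers only name the 2 dyes. Naming probes by a gene name column was not run, as the columns used here hold accessions only. T signal not well above background in sponge Cy5 limits the ratios of CCNT2 A_24_P174341, CCNT1, CDK9 A_23_P158083 and AFF4 A_24_P942636.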
